A study of Mus musculus with 9 samples.

Results

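Laminins, nidogens and perlecan are secreted proteins from which every basement membrane is built. The 10 genes described here encode 7 laminin chains (Lama1, Lama2, Lama4, Lama5, Lamb1, Lamb2 and Lamc1), both nidogens (Nid1 and Nid2) and perlecan (Hspg2). They were taken by symbol, from the RefSeq accession that the array files give for each probe, out of 32450 genes or identifiers on the array. All 10 were found, with 14 probes between them, and all 10 passed the filter on dim genes that left 20443 for testing. Lama2 passed it through the primordial germ cell arrays alone.

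Sorted mouse cells of 3 groups were measured, each on 3 arrays with 1 colour. Primordial germ cells (PGCs), which give rise to the gametes, were sorted by GFP from male E13.5 genital ridges. Their embryos came from a cross of MCH with C57BL6/J mice and carried Oct4ΔPE-GFP, a transgene active in germ cells. Max knockdown cells were VV3, a male embryonic stem (ES) cell line of 129SV background with a Venus reporter under the promoter of Vasa (Ddx4), transfected with siRNA against Max and sorted 3 days later as live, single, Venus-positive cells. Control cells were the same VV3 line with a non-silencing siRNA (AllStars), sorted after 3 days as live single cells. The siRNA and the Venus gate thus differed together between the ES cell groups, and both ES cell groups come from 1 line. Max is the partner protein through which MYC and MGA bind DNA. The study asked how the expression profile of Vasa-positive cells from Max knockdown cultures compared with those of control ES cells and of PGCs.

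A laminin is a trimer of an alpha, a beta and a gamma chain, joined along a coiled coil. The short arms of the chains polymerise into a sheet, nidogens link that sheet to type IV collagen by binding the gamma 1 chain, and the end of the alpha chain binds integrins and dystroglycan on the cell. Perlecan, a heparan sulfate proteoglycan, adds further links and holds growth factors. Laminins with the alpha 1 or alpha 5 chain, both with beta 1 and gamma 1, are typical of the early embryo, and germ cells of the fetal testis lie inside cords that a basement membrane surrounds.

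Levels are log2 signals relative to the 75th percentile of the same array, so a level of 0 is the signal that 75% of spots do not exceed, and a step of 1 is a doubling. Levels compare arrays for 1 gene and are not set against other genes, since probes differ in efficiency. A gene was called when limma's adjusted p (Benjamini-Hochberg over all 20443 genes) was under 0.05. Differences carry their standard error (SE), and a fold without the words "at least" is the fitted value.

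On these arrays, Max had levels of 0.49, 0.76 and 1.02 in Max knockdown cells, against 2.75, 2.63 and 2.76 in control cells, and Ddx4, the gene behind the gate, was 2.64 higher in Max knockdown cells. Of 12 germ cell markers, 12 were well above background on every PGC array, 11 on every Max knockdown array and 10 on every control array. Of 12 markers of pluripotent cells, 11 were so on every PGC array, 11 on every Max knockdown array and 12 on every control array. Detection of these markers alone thus did not set the groups apart. No spot was saturated, and 58.2% to 67.57% of the 43020 spots of an array exceeded background clearly. Correlations across genes ran from 0.991 to 0.995 within a group, from 0.966 to 0.974 between Max knockdown and control arrays and from 0.866 to 0.882 between PGC and ES cell arrays. Slide 1 held Max knockdown 1 and 2 with control 1 and 2, slide 2 held Max knockdown 4 with control 3, and the PGCs lay on slides 3 and 4, so that slide and group cannot be told apart for PGCs.

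The promoters of 3 members that moved in different ways are printed first, because the regulator that was silenced binds DNA at a defined sequence. They cover 250 bases before and 50 after the annotated start, from RefSeq on GRCm38.p6, and capitals mark a match on either strand to one of 5 motifs. Lamb1 lies at chr12:31265043-31265342 on the plus strand, Lamb2 at chr9:108479612-108479911 on the plus strand and Lama5 at chr2:180225810-180226109 on the minus strand, each read 5′ to 3′ along its gene.
Lamb1: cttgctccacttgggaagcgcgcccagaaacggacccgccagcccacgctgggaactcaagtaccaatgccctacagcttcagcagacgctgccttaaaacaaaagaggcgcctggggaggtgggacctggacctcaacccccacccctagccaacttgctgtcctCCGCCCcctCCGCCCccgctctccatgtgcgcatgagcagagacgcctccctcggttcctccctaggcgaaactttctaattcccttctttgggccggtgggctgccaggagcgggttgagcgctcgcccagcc
Lamb2: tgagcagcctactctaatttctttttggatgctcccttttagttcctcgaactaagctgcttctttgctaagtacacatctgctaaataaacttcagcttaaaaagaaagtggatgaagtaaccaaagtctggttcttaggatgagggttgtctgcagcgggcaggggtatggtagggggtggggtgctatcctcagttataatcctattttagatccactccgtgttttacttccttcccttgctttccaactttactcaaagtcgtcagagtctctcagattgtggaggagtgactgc
Lama5: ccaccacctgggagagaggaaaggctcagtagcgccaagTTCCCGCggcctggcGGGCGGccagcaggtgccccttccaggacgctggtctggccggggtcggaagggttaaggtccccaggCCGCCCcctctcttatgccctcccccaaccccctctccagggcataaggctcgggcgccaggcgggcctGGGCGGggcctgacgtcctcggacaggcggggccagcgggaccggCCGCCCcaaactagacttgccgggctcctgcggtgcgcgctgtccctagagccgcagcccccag

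A promoter was given for 6 of the 10 members: Lama2, Lama5, Lamb1, Lamb2, Nid1 and Hspg2. CACGTG, the E-box that MYC and MAX bind, occurred in 0 of the 6, against 7.15% of 32851 mouse promoters of that length. GGGCGG, the GC box of SP1, occurred in 5 of 6, against 35.7% of promoters, with 2 copies in Lamb1, 4 in Lama5 and none in Lamb2. GCGGGAA, an E2F site, occurred once, in Lama5, against 4.60% of promoters. AGGTGTGA, a T-box site of the kind MGA binds, and ATGCAAAT, the octamer of Oct4, were in 0 of 6, against 1.28% and 1.74% of promoters. None of the motifs overlapped another in these windows. A match is a description of letters and not a binding site, and Lama1, Lama4, Lamc1 and Nid2 were not searched.

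In PGCs the laminin, nidogen and perlecan genes did not move as a block. Against control cells, 6 of 10 fell, namely Lama1, Lama5, Lamb2, Lamc1, Nid1 and Hspg2, all by more than 2-fold, while Lamb1 and Lama4 rose, which neither did with spike-in scaling, and Nid2 did not pass the test. Lama2, the tenth, was higher in PGCs, but its call is not counted as a rise, since it entered the test through the PGC arrays alone. Over all genes, 32.3% fell and 43.1% rose. The median difference of the 10 was -2.10, beside 0.18 over all genes tested. Against Max knockdown cells the same 6 fell (31.5% of all genes did), Lamb1 and Lama4 rose (44.7% of all genes did), and the median was -2.21 beside 0.21. Both comparisons use the same PGC arrays, so they are not independent.

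Max knockdown cells differed from control cells at fewer of these genes. Lama1 and Lamb1 were lower and Lamb2 was higher, and the other 7 did not pass the test. The background was 21.8% of all genes lower and 18.3% higher, so 2 falls and 1 rise among 10 are near the share called anywhere. The median of the 10 was -0.02, beside -0.06 over all genes. Lamb1 was the only one of the 10 to change by at least 2-fold. With slide as a block the same 3 genes passed, and with spike-in scaling 0 of 10 did. Of the other 7 genes, Lama4 (0.42 and -0.10) and Lamc1 (-0.23 and 0.07) had opposite signs on slides 1 and 2, which were untested there.

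**Figure D1:**
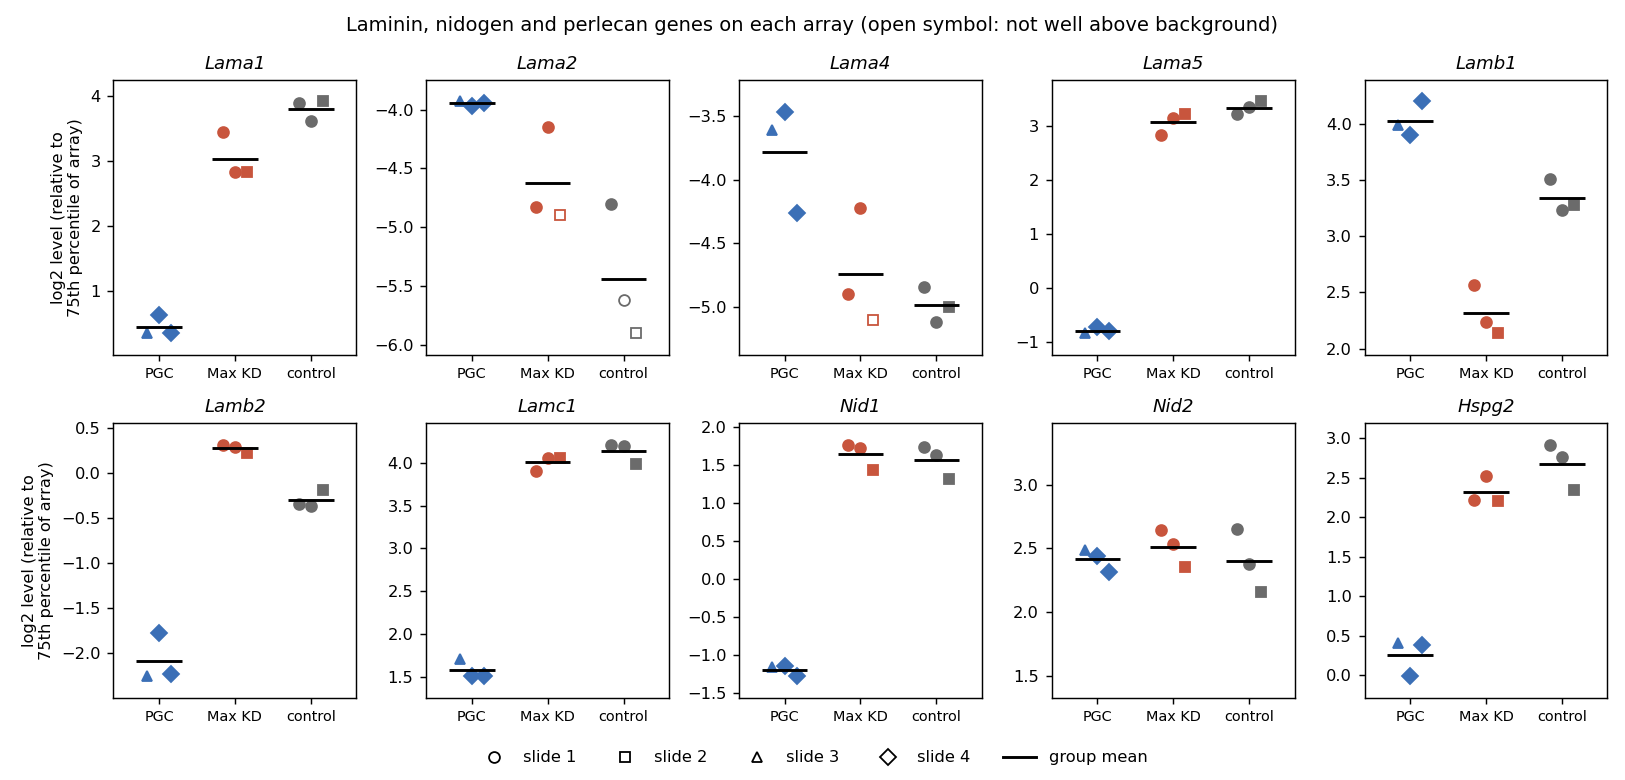
Log2 level (y axis, relative to the 75th percentile of the array) of the 10 genes on each of the 9 arrays, by group (x axis, Max KD is Max knockdown); the y range differs between panels, symbols give the slide, bars the mean of 3 arrays, and open symbols a spot not well above background. Lama5 lay between -0.83 and -0.73 in PGCs, below all ES cell arrays, while Lamb1 was lowest in Max knockdown cells and, at this scaling, highest in PGCs.

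The alpha chains carry the cell-binding end of the laminin molecule. Lama1 encodes alpha 1, the chain of the first embryonic basement membranes. Its levels were 0.36, 0.63 and 0.36 in PGCs, 3.45, 2.83 and 2.83 in Max knockdown cells, and 3.89, 3.62 and 3.92 in control cells. The 3 groups did not overlap, with PGCs lowest and control cells highest. The difference was -0.78 (SE 0.18, limma adjusted p = 0.01) for Max knockdown against control, a fold of 1.71. It was -0.62 on slide 1 and -1.09 on slide 2, and with slide as a block -0.78 (limma adjusted p = 0.03). In PGCs it was -3.36 against control (SE 0.18, limma adjusted p = 5.4e-07), a fold of 10.3.

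Lama5 encodes alpha 5, the most widespread alpha chain of later epithelia. It had levels of -0.83, -0.73 and -0.80 in PGCs, 2.83, 3.15 and 3.22 in Max knockdown cells, and 3.21, 3.34 and 3.45 in control cells. This was the largest difference among the 10 genes, at -4.12 for PGCs against control (SE 0.12, limma adjusted p = 2.3e-08), a fold of 17.4, and -3.85 against Max knockdown cells (limma adjusted p = 3.1e-08). Max knockdown and control arrays overlapped by 1 array, and that difference of -0.27 did not pass (limma adjusted p = 0.1).

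Lama2 and Lama4 encode the alpha chains best known from muscle and nerve (alpha 2) and from blood vessels (alpha 4). Both were dim. Lama2 had -3.93, -3.97 and -3.94 in PGCs, all well above background. Its Max knockdown levels were -4.83, -4.15 and -4.90, of which the first 2 were above background, and its control levels were -4.80, -5.62 and -5.90, of which only the first was. The fitted difference of PGCs was 1.49 from control cells and 0.68 from Max knockdown cells, given as a description with no test, because 2 of 3 control arrays measured no signal well above background and the filter had let the gene in through PGCs. Max knockdown against control gave 0.81 (limma adjusted p = 0.053). Without control 1 the difference was 1.13, given with no test, because neither control array left was above background. A second Lama2 probe was above background only on 2 PGC arrays, and was at least 1.56-fold higher in PGCs than in control cells, with no test.

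Lama4 had -3.61, -3.47 and -4.26 in PGCs, -4.90, -4.22 and -5.10 in Max knockdown cells, and -4.84, -5.12 and -5.00 in control cells. Max knockdown 4 was not above background, and Max knockdown 2 was above the lowest PGC array. Lama4 was 1.21 higher in PGCs than in control cells (SE 0.26, limma adjusted p = 0.0027) and 0.96 higher than in Max knockdown cells (limma adjusted p = 0.009). Max knockdown against control was 0.25 (limma adjusted p = 0.5).

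The PGC differences of Lama2 and Lama4 depended on how background and scale were treated. With normexp background correction they were 0.36 and 0.33 against control, and 0.24 and 0.31 against Max knockdown cells. That setting adds an offset of 50 to each signal, which by itself shrinks log2 differences between dim signals. Scaling on the spike-in transcripts lowered every PGC difference from control by 0.95 (from Max knockdown, by 0.97). Against control, Lama2 then gave 0.54 and Lama4 0.26 (limma adjusted p = 0.72), and against Max knockdown cells they gave -0.29 and -0.01. Within each of the 3 groups the spike-in scale differed between slides, which that fit did not model. As the log2 75th percentile over the spike-ins, it was -1.29 for PGCs on slide 3 and -2.26 and -2.07 on slide 4. Control cells had -0.51 and -0.53 on slide 1 and -1.74 on slide 2. Max knockdown cells had -0.68 and -0.51 on slide 1 and -1.54 on slide 2. With the median of all genes at -0.77 under that scaling, both genes stayed above the median gene.

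The summed signal of gonadal somatic cell markers was also higher in PGCs. Of 17 on the array, 15 were above background on every PGC array, 9 on every Max knockdown and 11 on every control array. The log2 of their summed signal was 3.25 to 4.16 in PGCs, 2.42 to 2.53 in Max knockdown cells and 2.40 to 2.52 in control cells. Against control, 11 of 16 tested markers rose in PGCs, 1 fell (Wt1) and 4 did not pass (Sox9, Nr2f2, Cyp17a1 and Aard). Over all genes, 43.1% rose and 32.3% fell. Amh, a hormone of Sertoli cells, had -3.00, -2.47 and -3.48 in PGCs and was above background on no ES cell array. Amh, Hsd3b1, Cst9 and Fgf9 entered the test through the PGC arrays alone. Their rises, and the count of 11 that includes them, are thus descriptions. Both that sum and Lama4 were highest on PGC 2 and lowest on PGC 3. Lama1, Lama5 and Lamb2, lower in PGCs than in ES cells, were also highest on PGC 2. Lama2 was level across the PGC arrays and Lamb1 was lowest on PGC 2. The part of such cells in these levels was not tested. In populations measured in bulk, fewer cells that express a gene and less RNA per cell cannot be told apart.

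The beta chains moved in opposite directions to each other in both comparisons with control, although the PGC rise of beta 1 did not hold with spike-in scaling. Lamb1 encodes beta 1, the chain of most embryonic laminins. It had 3.99, 3.90 and 4.20 in PGCs, 2.57, 2.24 and 2.14 in Max knockdown cells, and 3.51, 3.23 and 3.28 in control cells. No array of one group reached another group, with PGCs highest and Max knockdown cells lowest. Max knockdown against control was -1.02 (SE 0.14, limma adjusted p = 0.00076), a fold of 2.03, and -0.97 and -1.14 within slides 1 and 2.

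In PGCs, Lamb1 was 0.69 higher than in control cells (SE 0.14, limma adjusted p = 0.002) and 1.71 higher than in Max knockdown cells (limma adjusted p = 7.2e-06). The rise over control turned with spike-in scaling, to -0.26 (limma adjusted p = 0.72), and the one over Max knockdown cells became 0.75 (limma adjusted p = 0.25).

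Lamb2 encodes beta 2, which takes the place of beta 1 at the neuromuscular junction and in the kidney filter. Its levels were -2.25, -1.77 and -2.23 in PGCs, 0.31, 0.28 and 0.22 in Max knockdown cells, and -0.35, -0.37 and -0.19 in control cells. Here Max knockdown cells were highest and PGCs lowest, again without overlap. Max knockdown exceeded control by 0.58 (SE 0.13, limma adjusted p = 0.0091), a fold of 1.49, with 0.66 on slide 1 and 0.41 on slide 2. PGCs were at -1.78 against control (SE 0.13, limma adjusted p = 3.8e-06) and at -2.36 against Max knockdown cells (limma adjusted p = 7.4e-07).

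Lamc1 encodes gamma 1, the gamma chain of most laminins and the one that nidogen binds. It had 1.71, 1.51 and 1.51 in PGCs, 3.90, 4.06 and 4.06 in Max knockdown cells, and 4.21, 4.20 and 3.99 in control cells. PGC arrays lay far below both ES cell groups, which overlapped. The difference was -2.55 against control (SE 0.10, limma adjusted p = 1.1e-07), a fold of 5.87, and -2.43 against Max knockdown cells. Max knockdown against control was -0.13, with a 95% interval from -0.36 to 0.11 (limma adjusted p = 0.37).

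**Figure D2:**
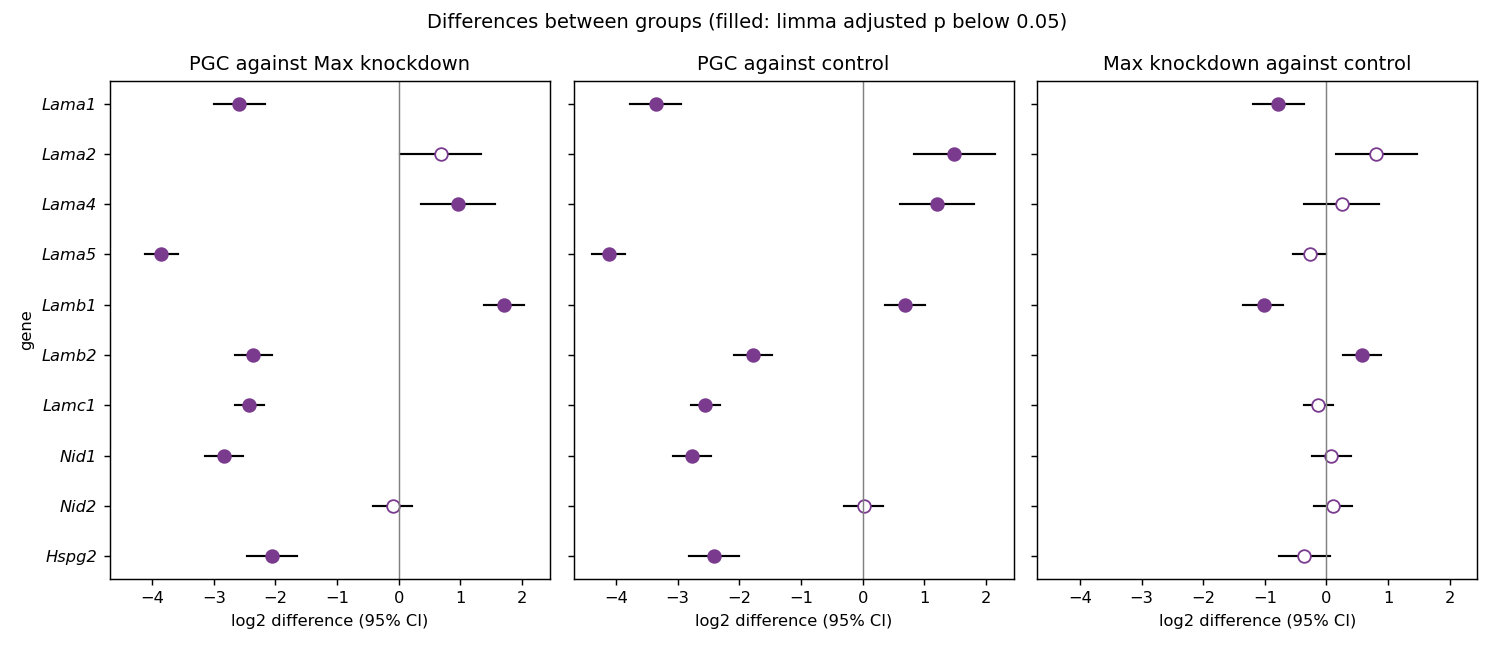
Log2 difference (x axis) of each gene (y axis) in the 3 comparisons, with 95% confidence intervals from the fit over 9 arrays; filled circles have a limma adjusted p below 0.05, and the PGC values of Lama2, which passed the filter through PGCs alone, are a description. In PGCs 6 genes lie near -2 or below in both comparisons, and in Max knockdown against control the 3 filled circles are Lama1 at -0.78, Lamb1 at -1.02 and Lamb2 at 0.58.

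Nidogens and perlecan tie the laminin sheet to collagen and to the cell surface. Nid1 had -1.16, -1.15 and -1.28 in PGCs, 1.77, 1.73 and 1.43 in Max knockdown cells, and 1.74, 1.64 and 1.32 in control cells. PGCs stood apart from ES cells, and the ES cell groups overlapped. The difference was -2.77 for PGCs against control (SE 0.14, limma adjusted p = 3.1e-07), a fold of 6.80, and 0.08 for Max knockdown against control (limma adjusted p = 0.69). A second Nid1 probe, above background on only 1 of 3 PGC arrays, gave a fitted -2.05. A further probe, with no PGC array above background, was at least 2.56-fold lower in PGCs than in control cells.

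Nid2 had 2.49, 2.44 and 2.31 in PGCs, 2.64, 2.53 and 2.35 in Max knockdown cells, and 2.65, 2.38 and 2.16 in control cells. All 3 groups overlapped. PGCs differed from control by 0.02, with a 95% interval from -0.30 to 0.33 (limma adjusted p = 0.92), and Max knockdown cells by 0.11, with an interval from -0.20 to 0.42 (limma adjusted p = 0.56). The PGC value was -0.93 with spike-in scaling (limma adjusted p = 0.14).

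Hspg2, the perlecan gene, had 0.41, -0.01 and 0.38 in PGCs, 2.22, 2.52 and 2.21 in Max knockdown cells, and 2.92, 2.76 and 2.34 in control cells. It fell by 2.41 in PGCs against control (SE 0.18, limma adjusted p = 3.5e-06), a fold of 5.33. A second probe, above background on only 1 of 3 PGC arrays, gave a fitted -2.30, which depends on dim signals. Max knockdown and control arrays overlapped through control 3. That difference was -0.36 (limma adjusted p = 0.15). Over single omitted arrays it ran from -0.52 to -0.23, and 16 of 17 alternatives left it not passing. The exception was the omission of control 3, the array that overlapped (-0.52, limma adjusted p = 0.044).

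The signal ratio of a pair of genes within an array does not move with the scaling of that array. The 5 ratios taken were chosen after the levels had been seen, so they have no test, and each is given on the log2 scale relative to its control mean. Lamb1 over Lamc1 was 3.07, 3.18 and 3.48 in PGCs, -0.53, -1.03 and -1.12 in Max knockdown cells, and 0.09, -0.18 and 0.08 in control cells. Beta 1 mRNA thus changed 9.46-fold relative to gamma 1 mRNA in PGCs and 1.86-fold the other way in Max knockdown cells.

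Nid2 over Nid1 was 2.82, 2.75 and 2.77 in PGCs, 0.05, -0.03 and 0.08 in Max knockdown cells, and 0.08, -0.09 and 0.02 in control cells. The ratio was 6.87-fold higher in PGCs than in control cells, and its 2 ES cell groups overlapped. Lamb2 over Lamb1 was -2.59, -2.02 and -2.78 in PGCs, 1.39, 1.69 and 1.73 in Max knockdown cells, and -0.22, 0.04 and 0.18 in control cells, so the beta chains parted in opposite directions in the 2 populations.

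Among the ratios taken, those with alpha chains moved less in PGCs. They involve Lama1 and Lama5, which fell as Lamc1 did. Lama2 and Lama4, whose PGC values against control were positive at this scaling, were in no ratio. Lama1 over Lamc1 averaged -0.81 ± 0.24 in PGCs, -0.65 ± 0.45 in Max knockdown cells and 0.00 ± 0.25 in control cells (SD, n = 3 each), and Max knockdown arrays overlapped both other groups. Lama5 over Lama1 averaged -0.76 ± 0.11 in PGCs, 0.50 ± 0.57 in Max knockdown cells and 0.00 ± 0.20 in control cells (SD, n = 3 each). A ratio shows unequal change of 2 genes and not which one changed.

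**Figure D3:**
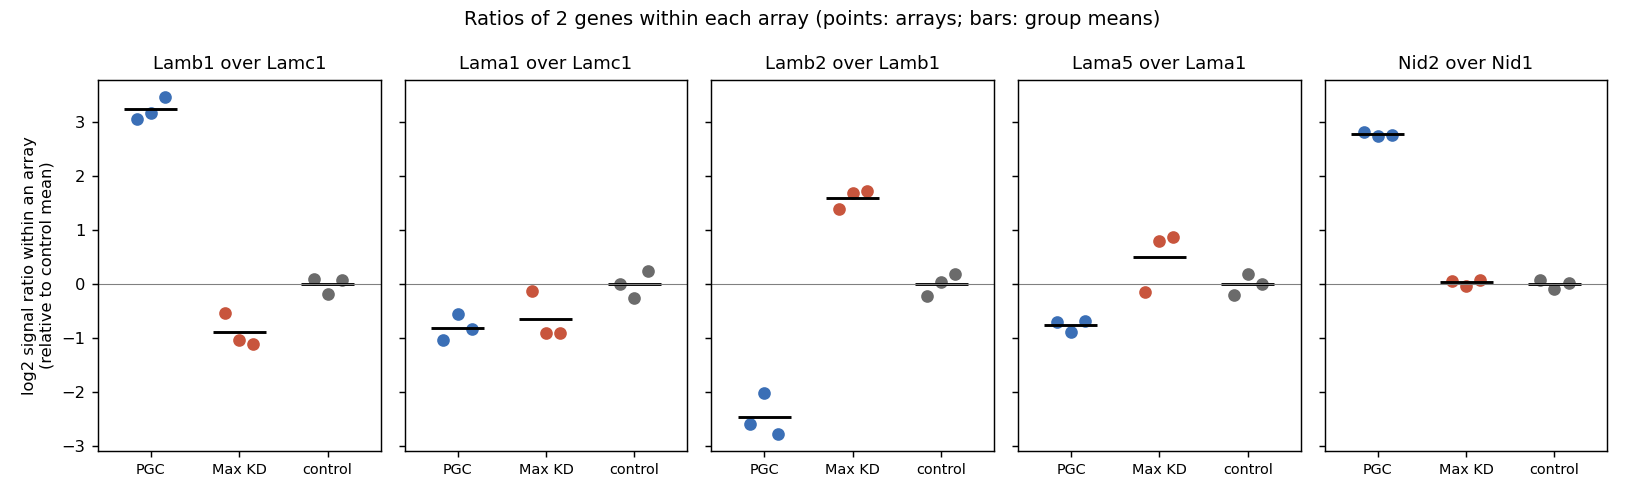
Log2 ratio of the signals of 2 genes within each array (y axis, relative to the control mean), by group (x axis, Max KD is Max knockdown); points are arrays and bars the mean of 3. Lamb1 over Lamc1 and Nid2 over Nid1 stand near 3 in PGCs, and Lamb2 over Lamb1 is above 0 in every Max knockdown array and below 0 in every PGC array.

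Other laminin chains include alpha 3 and beta 3, found in epithelial laminins of skin, and gamma 3, found in nerve and testis. Lamb3 had levels of -3.46, -3.55 and -3.42 in Max knockdown cells, against -4.21, -4.40 and -4.49 in control cells, and rose by 0.89 (SE 0.12, limma adjusted p = 0.00063). It was above background on no PGC array, at least 1.86-fold lower than in control cells. Lama3 differed by 0.37 in Max knockdown cells (limma adjusted p = 0.14) and by 0.50 in PGCs (limma adjusted p = 0.031), which became -0.45 with spike-in scaling. Lamc3 was too dim to be tested.

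Type IV collagen is the other network of the basement membrane, and nidogen joins it to laminin. Col4a1 and Col4a2, which share a promoter and form 1 trimer, moved together. Col4a1 had -0.18, -0.41 and -0.65 in Max knockdown cells, against 1.30, 0.84 and 1.01 in control cells, a difference of -1.46 (SE 0.18, limma adjusted p = 0.00048). For Col4a2 it was -1.45 (SE 0.19, limma adjusted p = 0.00057). With spike-in scaling the differences were -1.45 and -1.43 (limma adjusted p = 0.086 and 0.092), and that of Lamb3 was 0.91 (limma adjusted p = 0.56). On slides 1 and 2 the differences were -1.37 and -1.66 for Col4a1 and -1.32 and -1.72 for Col4a2.

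In PGCs, Col4a1 was at -3.50 and Col4a2 at -2.79 against control. Col18a1, whose fragment is endostatin, was 1.36 lower (log2 -1.36) in PGCs and differed by -0.09 in Max knockdown cells (limma adjusted p = 0.45). Col4a6 was 0.91 higher in PGCs, or -0.04 with spike-in scaling, and Col4a4 did not pass in either comparison. Col4a3, Col4a5 and Col15a1 were too dim to be tested.

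**Figure D4:**
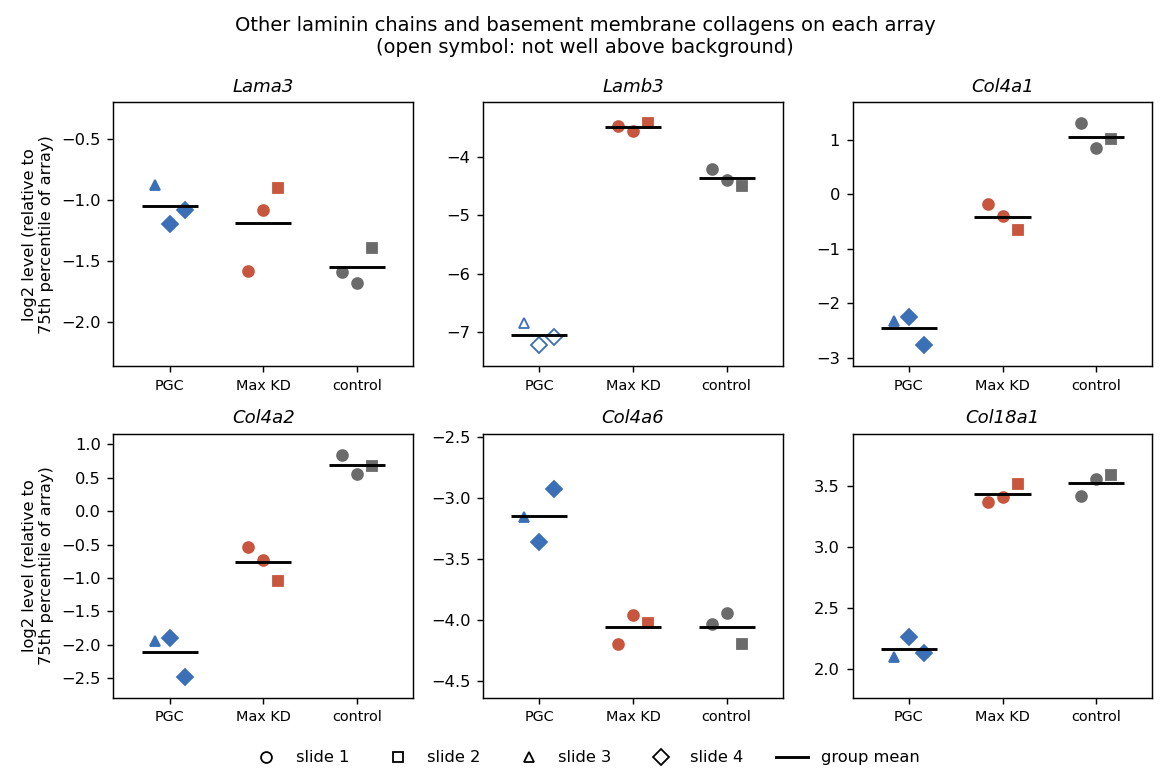
Log2 level (y axis, relative to the 75th percentile of the array) of 2 other laminin chains and 4 basement membrane collagens on each array, by group (x axis, Max KD is Max knockdown); the y range differs between panels, symbols give the slide, bars the mean of 3 arrays, and open symbols a spot not well above background. All Max knockdown arrays lie between PGC and control arrays for Col4a1 and Col4a2, and above control for Lamb3.

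The counts of the following gene lists stand beside the shares of all genes called, which were 21.8% lower and 18.3% higher in Max knockdown cells and 32.3% lower and 43.1% higher in PGCs, each against control. A gene measured above background in 1 group alone had to differ in order to be tested, so the counts are descriptions.

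Other basement membrane proteins were described from a list of 22, of which 15 were tested. In Max knockdown cells 4 fell and 2 rose, near the shares over all genes, and among the falls were Tinagl1 (-1.83), Fbln1 (-1.19), a fibulin, and Pxdn (-1.08), the peroxidase that cross-links type IV collagen. In PGCs 8 fell and 5 rose against control, where 32.3% and 43.1% of all genes did. Loxl2, a lysyl oxidase of matrix collagen, was at -6.36, whereas Smoc1, a calcium-binding matrix protein, was at 2.89 and Ntn1, a netrin with a laminin-like end, at 2.90.

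Laminin receptors fell more often than they rose in PGCs, at 11 falls and 1 rise of 15 tested, with a median of -1.19 beside 0.18 over all genes, of which 32.3% fell and 43.1% rose. The rise was Sdc4, a syndecan, at 5.99, and among the falls were Itga3 and Itgb4, integrin chains of epithelial laminin receptors. Itga3 was above background on 2 of 3 PGC arrays and Itgb4 on 1, so their fitted values of -4.46 and -3.59 depend on dim signals, and with normexp they were -2.61 and -1.87. In Max knockdown cells 5 fell and 2 rose, beside 21.8% and 18.3% of all genes. The rises were Itga9 (1.06) and Itga7 (1.00), integrin alpha chains, of which alpha 7 is a laminin receptor of muscle, and Sdc1, another syndecan, was at -1.14.

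Dystroglycan binds laminin only when it carries a particular sugar chain. Of 14 tested genes for that chain, 4 rose and 6 fell in Max knockdown cells, beside 18.3% and 21.8% of all genes, with Dpm1 at 0.83 and Pomk, a kinase of the core sugar, at -0.84. Dpm3, which anchors a mannose donor enzyme, was at -0.87. In PGCs 6 rose and 5 fell, near the 43.1% and 32.3% of all genes, with Pomgnt2, which adds a core sugar, at 2.53, B3galnt2 at 0.66 (-0.29 with spike-in scaling) and Dpm3 at -0.70.

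Perlecan's heparan sulfate is built by another set of enzymes. Of 19 tested, 2 rose and 4 fell in Max knockdown cells, beside 18.3% and 21.8% of all genes, including B3galt6 (1.27), which builds the linker, Glce (0.87), the epimerase, and Ndst2 (-0.52), a sulfotransferase. In PGCs 10 rose and 6 fell, beside 43.1% and 32.3% of all genes, with B3galt6 at 2.16, Sulf2, which trims sulfates outside the cell, at -2.42 and Xylt2, which starts the chain, at -1.31.

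Matrix proteases and their inhibitors fell more often than they rose in both comparisons, at 9 against 2 of 17 tested in Max knockdown cells and 14 against 2 in PGCs. Over all genes, falls and rises made up 21.8% and 18.3% in Max knockdown cells and 32.3% and 43.1% in PGCs. Mmp2, a gelatinase that cuts type IV collagen, was at -1.94 in Max knockdown cells, Timp1, a metalloprotease inhibitor, at -1.36, and Reck, a membrane-bound inhibitor, at 0.81. In PGCs Timp1 was at -4.04 and Timp2 at -2.72, and Adamts4 was at least 4.04-fold lower than in control cells.

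The counts for these lists hold for scaling on the 75th percentile. Spike-in scaling lowers each PGC value against control by 0.95, more than the PGC medians of the heparan sulfate list (0.34) and of the dystroglycan list (0.23), whose sign it therefore turns. With normexp, several PGC values moved by over 1.5-fold, to 4.61 for Sdc4, -4.98 for Loxl2, 1.54 for Ntn1, 1.43 for B3galt6, -3.45 for Timp1 and -1.94 for Timp2. Those of Col4a1 and Col4a2 became -2.70 and -2.19. The dim genes Lamb3 and Adamts4 became -0.62 and -1.05, and Tinagl1 in Max knockdown cells -1.08. For signals near or below the added offset of 50, the offset itself shrinks the difference. With spike-in scaling, the named genes with a negative value in Max knockdown cells that passed were Max (limma adjusted p = 0.005), Mmp2 (limma adjusted p = 0.0055) and Tinagl1 (limma adjusted p = 0.012).

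Summed signals of markers of endoderm and of fibroblasts, cell types that make much basement membrane, were lowest in PGCs and highest in control cells, the order of Lama1, Col4a1 and Col4a2. The group means of Lama5, Lamc1 and Hspg2 had that order too, although their Max knockdown and control arrays overlapped. Lamb1, highest in PGCs, and Lamb2, highest in Max knockdown cells, did not follow that order, nor did the means of Lama2, Lama4, Nid1 and Nid2. Of 17 tested markers of primitive and parietal endoderm, 9 fell and 0 rose in Max knockdown cells, where 21.8% and 18.3% of all genes did, and 10 fell and 2 rose in PGCs (32.3% and 43.1% of all genes). The 2 were Plat, a plasminogen activator, and Afp, a fetal serum protein, which was above background on no ES cell array and at least 18.7-fold higher in PGCs than in control cells. The log2 of the list's summed signal was 1.45 to 1.70 in PGCs, 2.19 to 2.34 in Max knockdown cells and 3.13 to 3.64 in control cells. Gata4, an endoderm regulator, had -2.28, -2.78 and -2.90 in Max knockdown cells, against -1.32, -1.93 and -1.87 in control cells. Its PGC levels of -1.93, -1.57 and -2.56 overlapped both, with a mean above that of Max knockdown cells. In PGCs against control, 5 endoderm markers did not pass, including Gata4 (-0.31), Foxa2 (0.05) and Pth1r (0.03). Against Max knockdown cells, 8 fell and 4 rose in PGCs, the rises including Foxa2 and Pth1r. Over all genes those shares were 31.5% and 44.7%. Among the 8 endoderm markers that did not pass in Max knockdown cells were Gata6 (-0.61), Sox17 (-1.36) and Pdgfra (0.24). For fibroblast and feeder markers, 7 of 10 fell and 0 rose in Max knockdown cells, beside 21.8% and 18.3% of all genes, with summed signals of 0.50 to 0.77 in PGCs, 0.78 to 0.93 in Max knockdown cells and 2.19 to 2.77 in control cells. The groups did not overlap in either sum. Of the 18 endoderm markers, 2 were above background on no Max knockdown and on no control array, and of the 14 fibroblast markers 4 were. Their part in the lower Lama1, Lamb1, Col4a1 and Col4a2 levels of Max knockdown cells was not tested.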

How the data were processed

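RNA (100 ng per sample) was hybridised with 1-colour spike-ins, per the labels' protocols. The deposited scanner files hold spot intensity extracted with Agilent Feature Extraction 10.7.3.1, with local background subtracted and the signal detrended, per the file headers; the design is annotated on mm9. The deposited value table holds log2 values, whose scaling and centring are not stated; it ran in the same direction as the scanner values and, once those were centred by probe median, correlated with them at r from 0.99981 to 0.99996, and its column medians ran from -0.12 to 0.39.

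For this report the log2 processed signal was taken minus the 75th percentile of each array's spots, after control spots and 65 probes with an outlier flag were removed. Of 39364 probes, 26012 were named through RefSeq accessions (GRCm38.p6, names and promoters only), and the probe with the highest mean stood for its gene. Genes that every array of some group showed well above background were fitted over all 9 arrays with lmFit and eBayes (limma 3.58.1, R 4.3.3). The script was tested on simulated data. A bound ("at least N-fold") compares the bright group's mean with the higher of the dim probe's own signal and the lowest signal above background on each array.

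The members and the gene lists were chosen with earlier results of these data known. Named were all members, the other laminin chains (1 is not reported here) and basement membrane collagens, Max, Ddx4, the defining markers used, and from each further list the 3 called genes with the smallest p for Max knockdown and for PGCs against control. The design text states that replicates were biological; the meaning of the replicate numbers is not stated, so p-values measure the spread between these samples. The number of arrays limits the precision. Alternatives were quantile, spike-in and normexp scaling (on median signals, as the mean was not given), other filters and probe choices, the deposited table, an intensity trend, blocks for replicate number and slide, fits of only the groups compared, and omission of single arrays. Normexp was run with an offset of 50, followed by quantile normalization. Plat stands in 2 lists, endoderm markers and proteases.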

Additional observations from a re-analysis of the deposited data

How the results depend on the processing

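The 6 falls in PGCs, against control and against Max knockdown cells, were 6 under each of the 17 alternatives. Of 504 single-gene values under the alternatives, 480 kept their direction and side of the threshold. Spike-in scaling, under which all PGC differences fell by 0.95 or 0.97, left 1007 called genes for Max knockdown against control (8204 otherwise; 71.4% higher instead of 45.6%), 8620 for PGCs against control (15418; 86.5% lower instead of 42.9%) and 8273 for PGCs against Max knockdown (15585; 12.1% higher instead of 58.7%), with 0 members higher in any comparison and 0 lower in Max knockdown cells; Lama1, Lamb1 and Lamb2 kept values of -0.76, -1.01 and 0.60 there. It turned Lamb1 (-0.26) and Nid2 (-0.93) in PGCs against control, and Lama2 (-0.29) and Lama4 (-0.01) against Max knockdown. The filter on all 9 arrays, which removes Lama2 and Lama4, left 1 member higher in PGCs in each comparison. Nid2 in PGCs against control also turned with quantile normalization (-0.15), normexp (-0.13), without control 3 (-0.10) and without PGC 1 (-0.02). In Max knockdown against control, Lama4 turned without Max knockdown 2 (-0.02), and Nid1 (-0.05) and Nid2 (-0.01) without control 3; over single omitted arrays these ran from -0.02 to 0.43, from -0.05 to 0.18 and from -0.01 to 0.24, and Nid2 in PGCs against control from -0.10 to 0.14. Leaving out 1 array gave 6408 to 7067, 14540 to 15128 and 14818 to 15227 called genes, and for members 1 to 2 higher and 2 to 3 lower in Max knockdown cells, 3 to 3 higher in PGCs against control (Lama2 included) and 2 to 3 against Max knockdown. With normexp, Lama4 against Max knockdown was 0.31 (limma adjusted p = 0.054). The cause was not tested.

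Replicate numbers were not taken as pairs: same-numbered deviations correlated at 0.37 and 0.39 for Max knockdown with control, where 2 numbers are shared and both pairs lie on slide 1, and from -0.03 to 0.02 for PGCs with control. With a replicate block, 7360, 14805 and 13352 genes were called and the counts of members were as without it. Dim signal limits Lama2 and Lama4.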
